A study of Capra hircus with 6 samples.

Results

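The enzymes that lengthen and desaturate long-chain fatty acids were followed in RNA-seq of goat intramuscular preadipocytes, which are precursors of the fat cells inside skeletal muscle. The group holds the elongases ELOVL1, ELOVL4, ELOVL5, ELOVL6 and ELOVL7, the desaturases FADS1, FADS2 and SCD, and HACD3 and TECR, which act later in each elongation cycle. Genes were found by the name that the deposited expression table gives them, and 9 of the 10 were matched, among 27271 genes in all. FADS2 was not analysed here. The cells came from the longissimus dorsi of 3-day-old Jianzhou goats. Both genotypes given in the labels, WT for the 3 libraries transfected with negative control RNA (NC groups) and LIPG Knock down for the 3 libraries transfected with 1 siRNA against LIPG (Si-LIPG groups), share that origin. LIPG encodes endothelial lipase. All 6 libraries are labelled as under adipose differentiation, which was induced for 48 h with 50 μmol/L oleic acid. The study calls its replicates biological, but the sources used here do not say whether the libraries of a group came from separate animals or cultures, so p values measure the spread between these libraries, which may be technical. In bulk libraries, fewer cells of a type and less RNA per cell cannot be told apart.

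Fatty acids grow by carbon pairs on the membrane of the endoplasmic reticulum. An ELOVL enzyme joins the acyl-CoA to malonyl-CoA, HSD17B12 reduces the product, an HACD enzyme removes water, and TECR, the trans-2-enoyl-CoA reductase, completes the cycle. Desaturases place double bonds: SCD makes oleic and palmitoleic acid from saturated chains, and FADS1 and FADS2 work on polyunsaturated chains. These steps set the chain length and saturation of stored fat, and SREBP-1c and LXR are known to drive several of the genes.

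Reads counted on genes numbered 524776 to 703680 in the NC libraries and 864882 to 1051230 in the Si-LIPG libraries, between 0.997% and 2.88% of all reads in a file. That share was higher in each Si-LIPG library (1.80% to 2.88%) than in each NC library (0.997% to 1.53%). NC 1 had the lowest share and the lowest TMM normalization factor (0.601 against 0.927 to 1.37 in the others). LIPG itself had 2 counts over the NC libraries and 4 over the Si-LIPG libraries, too few to check the labels, so that each direction given here rests on the library titles. The mitochondrial gene ND6, which lies on the other strand than the remaining 12 mitochondrial protein genes, had 54.2 to 99.3 times their median count per kb in the NC libraries and 22.6 to 49.8 times in the Si-LIPG libraries. Reads on no gene made up 91.6% to 93.7% of all reads. The library kit marks strand, but the strand setting of the counting is not given in the sources used here, so that the counts and FPKM values of the members may stem from reads of the sense or of the antisense strand. Of 12 preadipocyte markers 10 were matched. DLK1 was at 0 in every library, while COL1A1, COL1A2 and VIM were abundant, and the summed FPKM was 3343 to 7016 in the NC libraries and 9922 to 10570 in the Si-LIPG libraries. Of the 8 of these markers that were tested, ENG was lower (p under 0.05 before adjustment and fold change over 1.5), with a log2 fold change of -1.07 (adjusted p = 0.0844, edgeR). By that measure no marker was higher, and 12.9% of all tested genes were lower. THY1 stood at -0.38 (adjusted p = 0.658, edgeR). The other 6 log2 fold changes were positive, up to 0.51 for VIM (adjusted p = 0.416, edgeR). The median of the 8 was 0.19, against 0.16 for all tested genes. All 7 adipocyte markers were matched, with LPL at 0 and a summed FPKM of 10.1 to 45.8 and 18.9 to 47.9. The 6 myogenic markers matched of 7 summed to 46.5 to 74.2 and 82.4 to 94.4, and the 5 macrophage markers, with PTPRC at 0, to 13.3 to 19.5 and 20.7 to 29.3. Of the 5 endothelial markers, CDH5, KDR and TEK were at 0. The part of the strand setting and of other cells in the results was not tested.

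Levels can be compared between genes only as FPKM, which scales reads to the gene and to the total on genes. TECR was the most abundant member by far. Replicates 1 to 3 of the NC groups had a TECR FPKM of 562, 435 and 442, and those of the Si-LIPG groups had 300.5, 212 and 200.4. In each library TECR thus lay above 96.8% or more of the genes with a count. ELOVL1, an elongase of very long saturated and monounsaturated chains, came next, with a mean FPKM of 52.6 ± 23.4 in the NC and 86.2 ± 13.3 in the Si-LIPG groups (SD, n = 3 each). ELOVL5, the elongase of polyunsaturated chains, had 21.7 ± 14.2 and 42.8 ± 10.8. Within each group these top places did not overlap.

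Below them the order differed between the groups. In the NC groups HACD3, FADS1 and ELOVL6 followed with mean FPKM values of 11.6, 4.05 and 1.78. HACD3 overlapped with ELOVL5 there, whereas HACD3 lay above FADS1, and FADS1 just above ELOVL6 (lowest and highest FPKM 2.55 and 2.49). In the Si-LIPG groups ELOVL6 (10.7), HACD3 (13.8), FADS1 (6.79) and SCD (6.23) overlapped, each with its neighbour among these 4 in the order, which was set by the mean of log2(FPKM + 1) and was the same for log2(FPKM + 0.1). ELOVL6, the elongase that makes stearic acid from palmitic acid, lay above 4.38% to 20.2% of the counted genes in the NC libraries and above 46.2% to 56.2% in the Si-LIPG libraries.

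**Figure D1:**
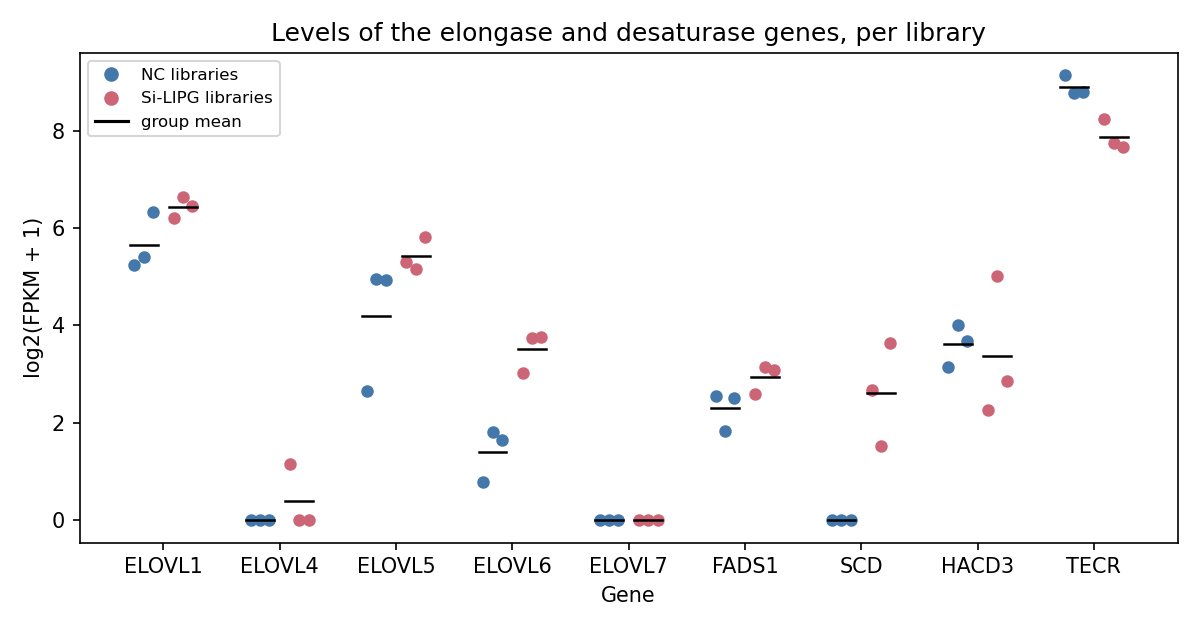
Level of each matched member as log2(FPKM + 1) in every library, with NC libraries in blue, Si-LIPG libraries in red and a black line at each group mean. TECR lay highest, with its Si-LIPG values below its NC values, ELOVL6 lay above its NC values, SCD was at 0 in the NC libraries and ELOVL7 in all.

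The groups were compared gene by gene on the counts by edgeR (quasi-likelihood test) over the 6574 genes that passed its filter on low counts. TMM normalization, used here, assumes that most genes do not change. Of the 9 members, 6 passed the filter (ELOVL1, ELOVL5, ELOVL6, FADS1, HACD3 and TECR). At the study's criterion (p under 0.05 before adjustment, fold change over 1.5), 2 of the 6 were called, ELOVL6 higher and TECR lower, where 20.7% of all tested genes were called (7.83% higher and 12.9% lower). With library sizes alone in place of TMM, 1588 genes were higher and 395 lower at the criterion, against 515 and 846, and DESeq2 gave 629 and 1064. The study, which names DESeq2, reports 1064 genes as upregulated by LIPG silencing at this criterion, the number that was lower here. Whether the library titles or the study's direction are reversed was not tested. ELOVL6 and TECR also had a Benjamini-Hochberg adjusted p under 0.05, as did 6.51% of all tested genes (0.974% higher and 5.54% lower). The same 2 were the members without overlap between the groups in TMM-normalized counts per 1000000 reads (CPM), against 28.7% of all tested genes. The median log2 fold change of the 6 was 0.12 and that of all tested genes 0.16.

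ELOVL6 (ENSCHIG00000026063) was the member that rose. Replicates 1 to 3 of the NC groups held 2, 8 and 8 reads, and those of the Si-LIPG groups held 33, 65 and 70. As TMM-normalized CPM these were 6.48, 14.4 and 12.6 against 37.2, 53.0 and 51.1. Every Si-LIPG value was above every NC value, and NC 1 was the lowest. The log2 fold change was 2.01 ± 0.55 (SE; adjusted p = 0.0446, edgeR), with a 95% interval from 0.83 to 3.18. With any single library left out it stayed between 1.78 and 2.20, but the adjusted p (edgeR) was then 0.0551 to 0.253, so that the adjusted call needed all 6 libraries.

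TECR (ENSCHIG00000020365) fell in the same test. Its counts, the largest of the members, were 1731, 1539 and 1828 for replicates 1 to 3 of the NC groups and 1526, 1225 and 1237 for those of the Si-LIPG groups. Its TMM-normalized CPM was 5613, 2772 and 2881 against 1722, 998 and 904. NC 1 was the highest, and all NC values were above all Si-LIPG values. The log2 fold change was -1.64 ± 0.40 (SE; adjusted p = 0.0397, edgeR). Leaving out NC replicate 1 gave -1.24 (adjusted p = 0.0848, edgeR) and NC replicate 2 -1.80 (adjusted p = 0.0594, edgeR). Leaving out Si-LIPG replicate 2 or 3 gave -1.47 and -1.41 (adjusted p = 0.243 and 0.253, edgeR). The adjusted call held without NC replicate 3 (-1.78, adjusted p = 0.0382, edgeR) and without Si-LIPG replicate 1 (-2.01, adjusted p = 0.00761, edgeR).

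The call of TECR depended on the reads to which counts were scaled, and that of ELOVL6 did not. Scaled to all reads in the files, those on no gene included, TECR had a CPM of 32.9, 36.1 and 39.7 in replicates 1 to 3 of the NC groups and 31.8, 32.8 and 33.9 in those of the Si-LIPG groups, and the groups overlapped. Its log2 fold change on that scale was -0.14 ± 0.19 (SE; adjusted p = 0.558, edgeR). ELOVL6 had a CPM of 0.0380, 0.188 and 0.174 against 0.687, 1.74 and 1.92, again without overlap, and a log2 fold change of 3.43 ± 0.78 (SE; adjusted p = 0.0462, edgeR). The share of all tested genes without overlap was not taken on that scale, so this lack of overlap has no background beside it. At the criterion 46.1% of all tested genes were then higher and 0.0304% lower, 11.4% had an adjusted p under 0.05, and the median log2 fold change of all tested genes was 1.58. Relative to that median ELOVL6 stood at 1.85 and TECR at -1.73, against 1.85 and -1.80 relative to the median after TMM normalization.

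**Figure D2:**
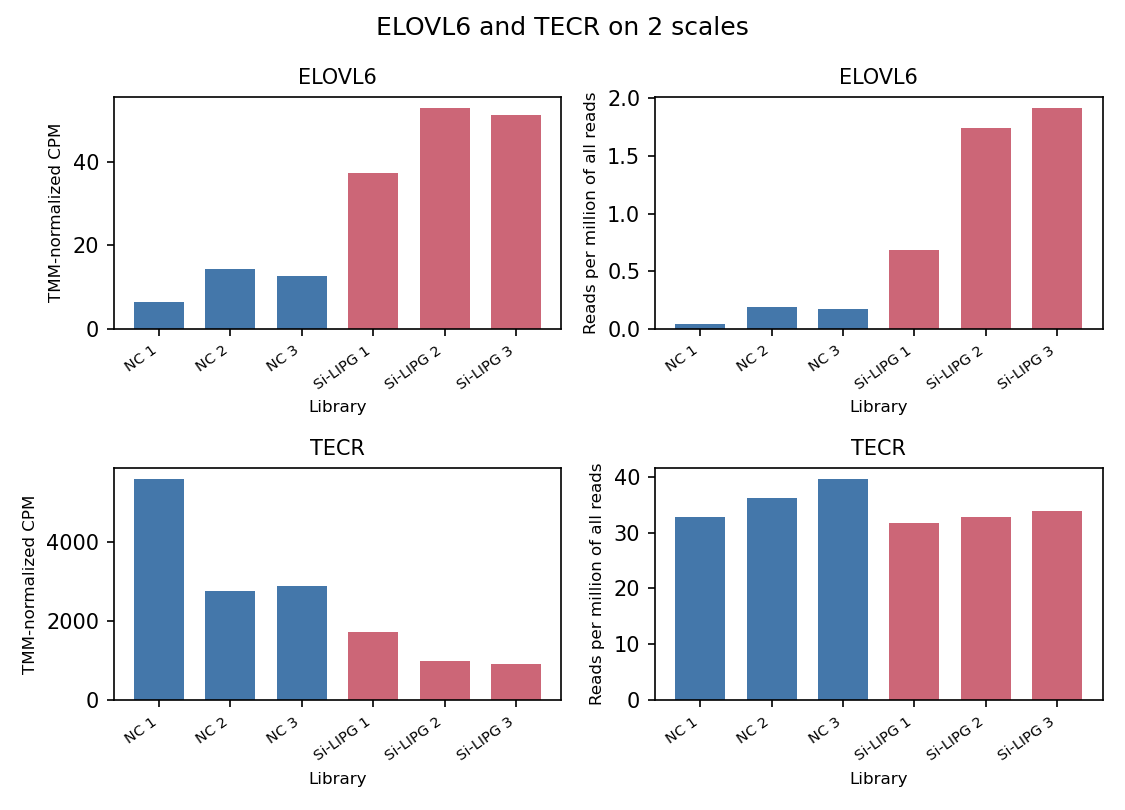
ELOVL6 (top) and TECR (bottom) in each library, as TMM-normalized CPM (left) and as CPM of all reads in the files (right), with NC libraries in blue and Si-LIPG libraries in red. ELOVL6 was higher in the Si-LIPG libraries on both scales, while TECR was lower after TMM normalization and overlapped between groups when scaled to all reads.

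The other elongases passed neither threshold after TMM normalization. ELOVL1 (ENSCHIG00000009640) had a TMM-normalized CPM of 64.8, 46.8 and 91.4 in replicates 1 to 3 of the NC groups and of 73.3, 82.3 and 69.4 in those of the Si-LIPG groups. The groups overlapped, with a log2 fold change of 0.14 (95% interval -0.66 to 0.94; adjusted p = 0.880, edgeR), whose sign changed without NC replicate 2 (-0.075). For ELOVL5 (ENSCHIG00000012953) the CPM was 12.97, 46.8 and 47.3 against 54.2, 39.9 and 60.6. NC 1 was low for ELOVL5 and the other NC libraries lay within the Si-LIPG range, with a log2 fold change of 0.47 ± 0.48 (SE; adjusted p = 0.653, edgeR). Scaled to all reads, ELOVL1, ELOVL5 and FADS1 met the criterion as higher with log2 fold changes of 1.56, 1.78 and 1.69, next to the 1.58 of the median gene.

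ELOVL4, which makes the very long chains of retina and skin, had 6 counts in Si-LIPG 1 and 0 in the other 5 libraries. ELOVL7 had 0 counts in all 6 libraries. A count of 0 allows up to 3 counts, a CPM of 2.85 to 5.72 over the reads on genes of a library, which covers counting error only. Neither gene could be compared at this depth.

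Among the desaturases, FADS1 (ENSCHIG00000022314), the delta-5 desaturase, was counted 10, 6 and 13 times in replicates 1 to 3 of the NC groups and 17, 30 and 31 times in those of the Si-LIPG groups. After TMM normalization this gave 32.4, 10.8 and 20.5 against 19.2, 24.4 and 22.6 CPM. The Si-LIPG values lay inside the NC range, which NC 1 and NC 2 spanned. The log2 fold change was 0.11 (95% interval -1.24 to 1.45; adjusted p = 0.951, edgeR), an interval that holds a 2-fold change in either direction. Without NC replicate 2 its sign changed (-0.22).

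SCD (ENSCHIG00000021254), the delta-9 stearoyl-CoA desaturase, was counted in the Si-LIPG libraries only, with 5, 2 and 13 reads in replicates 1 to 3 and 0 in each NC library. Summed over the groups, 20 reads in the Si-LIPG libraries against a limit of 3 reads in the NC libraries were at least 4.21-fold higher per read on genes and at least 7.73-fold higher per read in the files. The limit covers counting error in the NC libraries only, not the spread between libraries. Genes with a count numbered 8927 to 10603 in the NC and 11545 to 12344 in the Si-LIPG libraries. The share of all genes counted in the Si-LIPG libraries only was not taken. Scaled to all reads, the median log2 fold change of all tested genes was itself 1.58. TMM factors were 0.601 to 0.949 in the NC and 1.06 to 1.37 in the Si-LIPG libraries, so after TMM normalization the bound would be lower. SCD did not pass the edgeR filter. Without that filter it met the criterion, but not after adjustment (adjusted p = 0.326, edgeR), and it did not meet it with DESeq2.

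HACD3 (ENSCHIG00000020855), one of the 3-hydroxyacyl-CoA dehydratases, varied most of the tested members among the Si-LIPG libraries. It was counted 5, 11 and 10 times in replicates 1 to 3 of the NC groups and 4, 37 and 8 times in those of the Si-LIPG groups. As TMM-normalized CPM these were 16.2, 19.8 and 15.8 against 4.51, 30.1 and 5.84, so that Si-LIPG 2 was the highest library and Si-LIPG 1 and 3 the lowest. The log2 fold change was -0.34 (95% interval -2.12 to 1.44; adjusted p = 0.868, edgeR). Leaving out Si-LIPG replicate 2 or 3 gave -1.70 and 0.020, and it was 0.27 with library sizes alone.

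**Figure D3:**
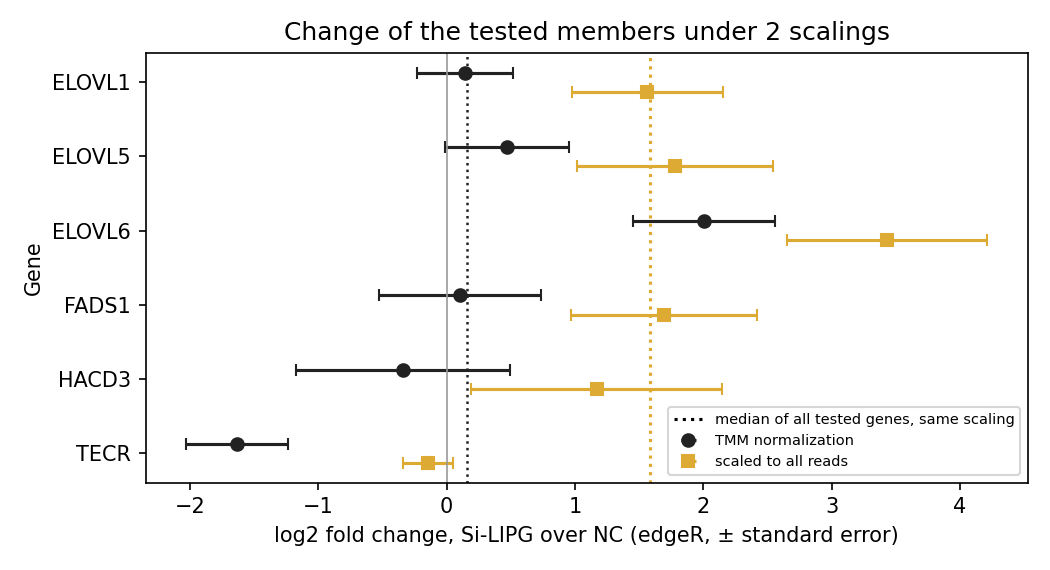
Log2 fold change (Si-LIPG over NC) with standard errors for the 6 tested members, after TMM normalization (black circles) and scaled to all reads (yellow squares). Dotted lines mark the median of all tested genes, 0.16 and 1.58; ELOVL6 lay above and TECR below it under both scalings, and the other members lay within 1 standard error of it.

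The make-up of the family within a library does not depend on scaling between libraries. TECR made up 91.0%, 82.6% and 77.6% of the members' summed FPKM in replicates 1 to 3 of the NC groups and 69.2%, 53.2% and 52.7% in those of the Si-LIPG groups. The mean was 83.7% ± 6.78 against 58.4% ± 9.40 (SD, n = 3 each), without overlap. The share of ELOVL1 was 9.26% ± 4.16 in the NC and 21.5% ± 4.25 in the Si-LIPG groups, and that of ELOVL5 was 3.93% ± 2.67 and 10.7% ± 3.27. ELOVL6 held 0.321% ± 0.184 and 2.68% ± 0.897, and FADS1 0.701% ± 0.189 and 1.70% ± 0.469. For each of these 5 genes the groups did not overlap, and a two-sided exact permutation test gave p = 0.1, which is the smallest value 3 against 3 libraries can reach (adjusted p = 0.12 over the 6 members counted in every library). HACD3 had 2.07% ± 0.796 and 3.45% ± 3.79, and its groups overlapped. No such share was taken for all tested genes, so the lack of overlap in 5 members has no background beside it.

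Shares of 1 sum are tied to each other, so shares were also taken without TECR, a choice made after seeing the data. ELOVL6 then made up 1.29%, 2.71% and 1.67% of the sum in replicates 1 to 3 of the NC groups and 5.35%, 6.63% and 6.94% in those of the Si-LIPG groups. Of the members counted in every library, ELOVL6 was the one whose groups still did not overlap (two-sided exact permutation test, p = 0.1, adjusted p = 0.5 over 5 members). ELOVL1 had 57.9% ± 11.1 and 51.8% ± 3.03, and ELOVL5 21.9% ± 11.7 and 26.0% ± 6.51 (SD, n = 3 each). ELOVL1 held the largest part of that sum in all 6 libraries. Per 1000 TECR reads, ELOVL6 had 1.16, 5.20 and 4.38 reads in replicates 1 to 3 of the NC groups and 21.6, 53.1 and 56.6 in those of the Si-LIPG groups. That was a ratio of means of 12.2, where the ratio was 3.35 for ELOVL1, 3.89 for ELOVL5 and 3.62 for FADS1. Each ratio is divided by TECR, which was itself lower in the Si-LIPG libraries after TMM normalization. No such ratio was taken for all tested genes.

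**Figure D4:**
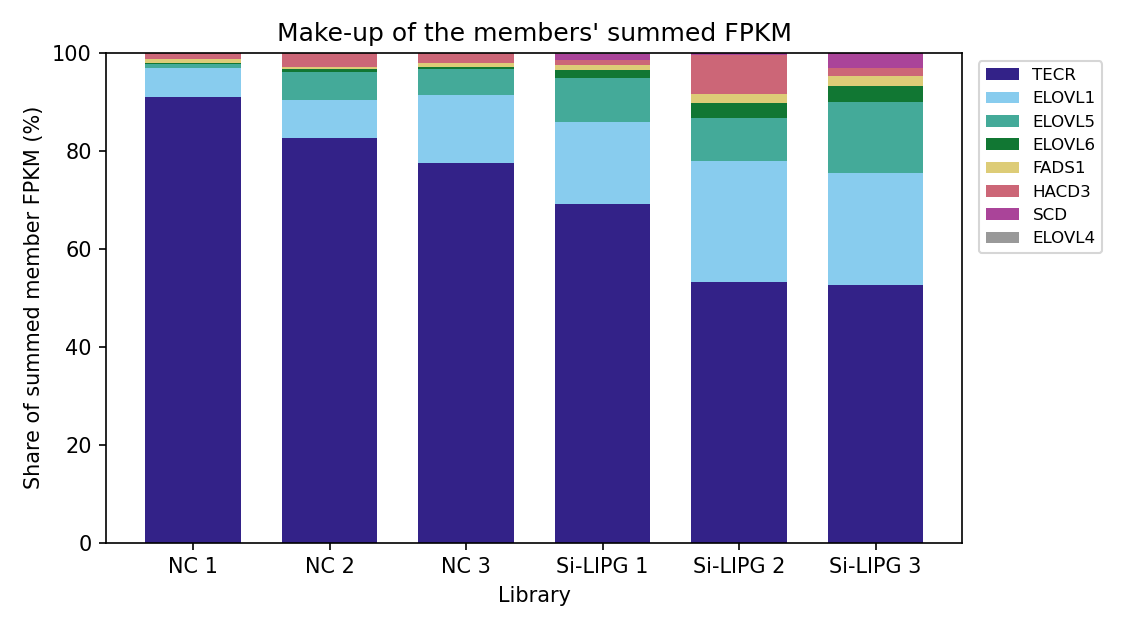
Share of each member in the summed FPKM of the members, in percent, for each library. The TECR share was between 77.6% and 91.0% in the NC libraries and between 52.7% and 69.2% in the Si-LIPG libraries, where the shares of ELOVL1, ELOVL5, ELOVL6 and FADS1 were larger.

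Neighbouring genes could share reads with some members. By RefSeq (goat assembly ARS1.2), LOC102172137 and a tRNA gene overlap TECR and NDUFB7 lies within 1 kb of it, LOC102169085 overlaps ELOVL6, VWA9 overlaps HACD3, and CDC20 lies within 1 kb of ELOVL1. The other 5 matched members had no neighbour within 1 kb. NDUFB7, a subunit of respiratory complex I, was the one of these neighbours matched by name in the files, with a log2 fold change of 0.54 (adjusted p = 0.858, edgeR). The part of reads from neighbours in the counts of TECR and ELOVL6 was not tested.

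The genes closest to ELOVL6 in their pattern over the 6 libraries, by Pearson correlation of log2 CPM, were IBTK, NUDT9 and GJA1 (r = 0.997, 0.996 and 0.992), and 338 genes had a correlation over 0.9. For FADS1 they were UROD, ENSCHIG00000019403, which has no name in the files, and POFUT2 (r = 0.988, 0.986 and 0.980), with 80 genes over 0.9. Between members, ELOVL6 and TECR had r = -0.98 and ELOVL6 and FADS1 r = -0.040. All these values share the groups, the libraries and their normalization.

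The remaining enzymes of elongation and desaturation were sparsely counted. Of 16 such genes, 15 were matched and 4 had enough counts for the test. CYB5R1, a cytochrome b5 reductase, met the criterion as lower, its CPM being 35.2 ± 7.06 in the NC and 15.1 ± 3.17 in the Si-LIPG groups (SD, n = 3 each; log2 fold change -1.22, adjusted p = 0.237, edgeR). Scaled to all reads its log2 fold change was 0.18. HACD2, a paralog of HACD3, had 2, 3 and 18 reads in replicates 1 to 3 of the NC groups and 40, 44 and 44 in those of the Si-LIPG groups. The groups did not overlap, but at a log2 fold change of 1.39 ± 0.65 (SE) HACD2 missed the criterion (adjusted p = 0.242, edgeR). FADS3, a desaturase of sphingoid bases, stood at 0.55 (adjusted p = 0.602, edgeR) and DEGS1, the dihydroceramide desaturase, at 0.53 (adjusted p = 0.777, edgeR). The median of the 4 was 0.54, against 0.16 for all tested genes.

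HSD17B12, the ketoreductase between the ELOVL and HACD steps, was not tested, with 4, 6 and 6 reads in replicates 1 to 3 of the NC groups and 6, 44 and 34 in those of the Si-LIPG groups. SCD5, another stearoyl-CoA desaturase, had at most 10 counts in any library. The elongases ELOVL2 and ELOVL3, together with FADS6 and DEGS2, were at 0 in all 6 libraries.

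Mitochondrial elongation and acyl-CoA hydrolysis was followed in 15 genes, of which 11 were matched and 7 tested. HADHB, the thiolase subunit of the trifunctional protein, met the criterion as higher (log2 fold change 1.58 ± 0.63 SE, adjusted p = 0.153, edgeR), with a CPM of 11.1 ± 6.87 in the NC and 35.8 ± 6.37 in the Si-LIPG groups (SD, n = 3 each). No other gene of that list met it, and the median of the 7 was 0.47. Of 14 genes that supply the elongases with acyl-CoA and malonyl-CoA, 10 were tested and 3 met the criterion, all higher, where 7.83% of all tested genes were higher at it. They were ACLY, which makes cytosolic acetyl-CoA (log2 fold change 0.96, adjusted p = 0.0942, edgeR), and the acyl-CoA synthetases ACSL4 (1.18, adjusted p = 0.0942, edgeR) and ACSL5 (1.60, adjusted p = 0.127, edgeR). The median of the 10 was 0.69, and FASN and ACACA stood at 0.39 and 0.36. Of 16 regulators, 14 were matched and 6 tested. None of the 6 met the criterion with edgeR, and none had a p under 0.05 before adjustment. The largest log2 fold change of the 6 was that of PPARD, 1.79 ± 0.95 (SE; adjusted p = 0.309, edgeR). SREBF2, the SREBP of cholesterol synthesis, had 0.76 (adjusted p = 0.366, edgeR). SREBF1, the gene of SREBP-1c, was not matched, and the LXR genes NR1H2 and NR1H3 stood at -0.22 and 0.39. The median was 0.39, and MLXIPL was at 0 in all 6 libraries.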

How the data were processed

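Poly(A) RNA of 3 NC and 3 Si-LIPG libraries was sequenced from libraries with dUTP strand marking. Counts were deposited by the authors in a file for each library (27271 genes and 5 rows for reads on no gene, left out of library sizes and tests except where stated) and FPKM values of the same genes in 1 table. The submitters' processing notes name fastp, HISAT2, SAMtools and HTSeq. Versions, genome build, annotation and strand setting are not given in the sources used here. Ratios of counts to FPKM gave 1 length per gene.

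Libraries were grouped by title. Genes were kept by filterByExpr, normalized by TMM and tested by edgeR 4.0.16 (quasi-likelihood test, no covariates, R 4.3.3), with Benjamini-Hochberg adjustment over all tested genes. The members, lists and tests were chosen with earlier results of these data known. Named were all members, the tested genes of the other elongation and desaturation enzymes, genes at the criterion among mitochondrial elongation and hydrolysis, fatty acid supply and regulators, and the 3 genes most correlated with ELOVL6 and FADS1. Other genes were named after their values were seen. Alternatives were DESeq2 size factors, upper quartile and library sizes alone in place of TMM, scaling to all reads, DESeq2 1.42.0, 2 other filters, a replicate block, limma 3.58.1 on log2(FPKM + 1) and log2(FPKM + 0.1), and leaving out each library. Procedures were tested on simulated data. Shares were compared by exact permutation tests (scipy 1.17.1). Replicates differed by more than sampling noise. No sequence of the members was used here.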

Additional observations from a re-analysis of the deposited data

How the results depend on the processing

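ELOVL6 had a positive and TECR a negative log2 fold change under every alternative that gave a value, from 1.78 to 3.43 over 15 alternatives and from -2.01 to -0.14 over 16. The adjusted p was under 0.05 in 7 and 8 of these. The members at the criterion numbered 2 in the reported test, 4 when scaled to all reads (ELOVL1, ELOVL5, FADS1 and ELOVL6) and 1 over genes with at least 10 counts in every library, where ELOVL6 was not tested. Members with an adjusted p under 0.05 numbered 1 with library sizes alone, scaled to all reads or with at least 10 counts in every library, 0 with limma on log2(FPKM + 1) or log2(FPKM + 0.1), and 0 to 1 when a library was left out. Without NC replicate 1 or 2 or Si-LIPG replicate 2 or 3 it was 0, while both members still met the criterion.

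Over all tested genes, 3032 met the criterion when scaled to all reads and 2044 without a filter, against 1361 in the reported test, and 871 to 1692 did with any library left out. Of the 1361, 515 were higher and 846 lower, against 1588 and 395 with library sizes alone and 3030 and 2 when scaled to all reads. Genes with an adjusted p under 0.05 numbered 428, against 123 with library sizes alone, 750 scaled to all reads, 714 with at least 10 counts in every library, 925 with a replicate block, 0 with limma on either FPKM scale (p under 0.05 before adjustment in 1912 and 1671 genes), and 0 to 648 upon leaving out a library. The 0 came without NC replicate 1 or 2 or Si-LIPG replicate 2 or 3, with p under 0.05 before adjustment in 1307, 1616, 888 and 871 genes. The median of the members minus that of all tested genes was -0.037 over 6 members and -0.37 to 0.051 when a library was left out. Over other sets of members it was 0.18 with DESeq2 (8 members) and -0.61 with at least 10 counts in every library (2 members, ELOVL1 and TECR). HACD3 changed sign with library sizes alone (0.27) and scaled to all reads (1.17), and had -1.70 to 0.020 when a library was left out. ELOVL1 had -0.075 to 0.45 and FADS1 -0.22 to 0.47 when a library was left out. Without TECR in the sum, the differences in share (Si-LIPG minus NC) were -6.03 percentage points for ELOVL1, -1.04 for FADS1 and -5.62 for HACD3, each of the opposite sign to that with TECR, and the difference for HACD3 was -0.801 to 2.66 when a library was left out. The cause was not tested for any of these.

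Whether the replicate numbers of the titles pair the libraries was not settled. Deviations from the group means correlated at 0.210, 0.0639 and 0.105 for same-numbered libraries, but not every library correlated best with its own number. With the replicate block, the same 2 members were called. TECR then had a log2 fold change of -1.62 ± 0.16 (SE; adjusted p = 6.58e-12, edgeR). ELOVL6 had 2.07 ± 0.64 (SE; adjusted p = 0.0202, edgeR). UXT had under 10 counts in every library, so the alternative relative to it was not run. At this depth ELOVL4, ELOVL7 and SCD did not pass the filter on low counts.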
